A study of Mus musculus with 7 samples.

Results

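The isoleucine tRNAs of mouse glia are 2 of the 52 anticodon pools measured, Ile-AAT and Ile-TAT, and 7 of the 217 isodecoders, which are tRNAs that share an anticodon and differ elsewhere in their bodies. Members were selected by name, as every tRNA labelled isoleucine, but the family itself was taken up with earlier results of these data known. Ile-AAT held 4 isodecoders from 11 listed genes, and Ile-TAT held 3 isodecoders from 5 listed genes.

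The cells were cultured from oligodendrocyte progenitor cells (OPCs), which were themselves made from epiblast stem cells of 129S/SvEv male mouse embryos and grown with bFGF and PDGFA. Oligodendrocytes (OLs) came from these OPCs after bFGF was withdrawn and noggin, IGF-1, cyclic AMP, NT3 and the thyroid hormone T3 were given. Astrocytes came from OPCs in a medium with bFGF, Hb-EGF, CNTF and BMP4. QuantM-seq, which ligates an adapter to both ends of intact mature tRNAs and reads their cDNA, gave 3 OPC, 2 OL and 2 astrocyte libraries, called biological replicates by the study. The OLs were made from 2 of the OPC replicates, and the study describes its astrocytes as coming from the same OPCs. The groups are therefore not independent of each other. The sources do not say which OPC replicates gave the OLs or the astrocytes.

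Isoleucine is written with codons AUU, AUC and AUA. The anticodon AAU (Ile-AAT in gene spelling) has its first adenosine deaminated to inosine, and this tRNA reads at least AUU and AUC. The anticodon UAU (Ile-TAT) reads AUA, the codon next to the methionine codon AUG, and its genes carry an intron beside the anticodon that tRNA splicing removes before the tRNA can work. The tables measure the mature tRNA and hold neither the state of the inosine nor the unspliced precursor. They do not measure which codons a pool reads, so the levels are not a measure of supply for single codons.

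A gene sequence is shown because the intron sets the Ile-TAT pool apart from the Ile-AAT pool. RefSeq placed 16 nuclear isoleucine tRNA genes on GRCm38.p6, 8 of them on chromosome 13 between 21855320 and 23438182. By length they formed 2 classes, 12 genes of 73 to 74 nucleotides and 4 of 93 to 96 nucleotides. By the GENCODE annotation 11 lay between genes and 5 inside one, among them n-TIaat13 in an intron of Dhx9, which encodes an RNA helicase. The only gene with TAT in its symbol, n-TItat14, was one of the 4 longer genes and lies at chr13:21896938-21897031 on the minus strand, within the exon of Mir1983. It reads as follows, with the anticodon in capitals.
n-TItat14: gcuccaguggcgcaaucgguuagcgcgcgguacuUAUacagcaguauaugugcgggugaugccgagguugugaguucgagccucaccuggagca

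The anticodon UAU sits at bases 35 to 37 of the 94, counted from the 5′ end. The gene is 20 bases longer than the genes of 74 nucleotides. All 7 of its first 7 bases pair with the bases just before the last base at its 3′ end, the acceptor stem of a tRNA. The run GUUCGA, found once at base 74, is the core of the internal promoter element known as the B box. Beyond the gene, UUUU, the stop signal of RNA polymerase III, begins after 2 further bases. The annotated mature mmu-miR-1983, 21 bases long, takes its first 13 bases from the end of the tRNA and 8 from beyond it. Of the 4 longer genes, 3 have AAT in their RefSeq symbols, so those symbols gave 15 AAT genes and 1 TAT gene against the 11 and 5 in the names of the tRNA tables. The sources used here do not pair a RefSeq symbol with an isodecoder, so no tRNA level is assigned to n-TItat14 or to another single locus.

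Values are RPM, a count of reads divided by the library total over cytosolic and mitochondrial tRNAs and brought to 1 common total. The libraries held 1339021 to 2627351 tRNA reads, and a count of 0 leaves room for up to 3 reads, which were worth 1.14 to 2.24 RPM. Listed cytosolic tRNAs made up 92.1% to 93.2% of reads in the astrocyte libraries and OPC replicates 1 and 2, 95.02% in OPC replicate 3, and 96.1% to 96.4% in OLs. Replicates differed by more than counting error in each of the 3 groups (chi-square 31.0 to 195 times its degrees of freedom), so p-values here measure the spread between libraries. That spread joins differences between cultures and between library preparations, which cannot be told apart. Intervals from reads cover counting error only, because PCR copies were not marked. The tables hold no cell type markers, and OL cultures keep some undifferentiated OPCs, so a difference in cell makeup and a difference in tRNA per cell cannot be told apart.

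The Ile-AAT pool was higher in every OL and astrocyte library than in any OPC library. It stood at 11981, 10461 and 10358 RPM in OPC replicates 1 to 3, at 14127 and 14234 RPM in OLs, and at 13170 and 13472 RPM in astrocytes. The 3 groups did not overlap, and OPC replicate 1 lay nearest to the differentiated cells. The means were 10933 ± 909 RPM in OPCs (SD, n = 3), 14180 ± 75.5 in OLs (SD, n = 2) and 13321 ± 214 in astrocytes (SD, n = 2). Among the 52 pools Ile-AAT held rank 30 or 31 in the OPC libraries and rank 24 to 26 in the differentiated cells.

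The Ile-TAT pool took a different order, with astrocytes lowest and OLs and OPCs close together. It measured 12635, 13234 and 11528 RPM in OPCs, 13005 and 13455 RPM in OLs, and 10804 and 11496 RPM in astrocytes. Both astrocyte libraries lay below all others, though astrocyte replicate 2 was only just under OPC replicate 3, and the OL and OPC libraries overlapped. The means were 12465 ± 866 RPM in OPCs (SD, n = 3), 13230 ± 318 in OLs (SD, n = 2) and 11150 ± 489 in astrocytes (SD, n = 2). The plot of both pools by library shows these different orders on 1 common scale.

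**Figure D1:**
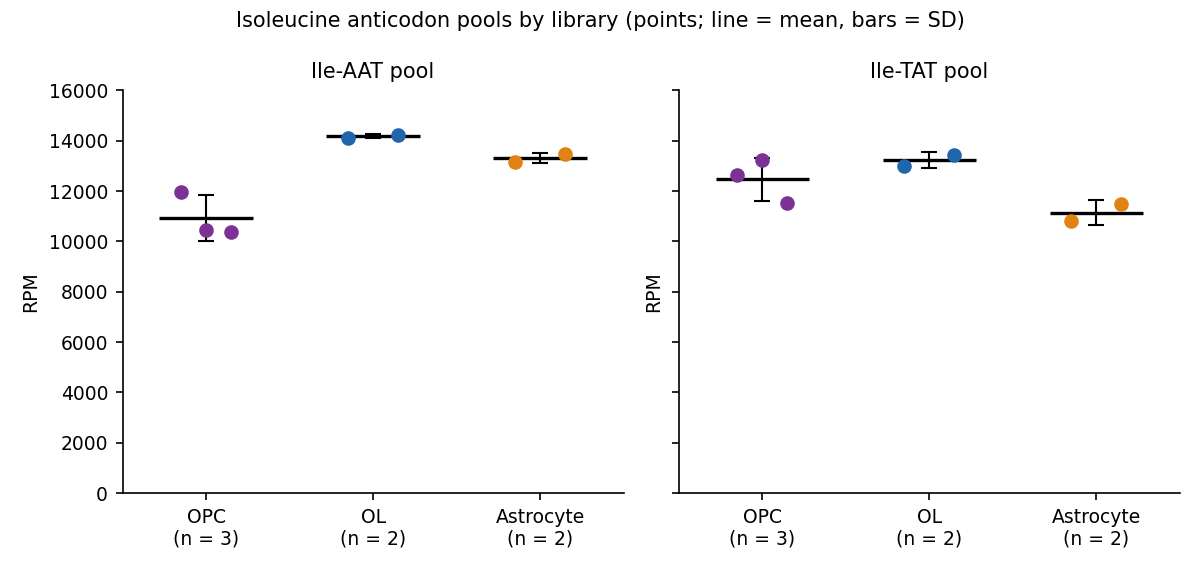
RPM of the Ile-AAT pool (left) and the Ile-TAT pool (right) in each library (points), with group means (lines) and SD (bars), for OPCs (n = 3), OLs (n = 2) and astrocytes (n = 2). Ile-AAT lies at 10358 to 11981 RPM in OPCs and at 13170 to 14234 RPM in all other libraries, whereas Ile-TAT is lowest in the astrocytes, at 10804 and 11496 RPM.

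Neither pool passed the test, an adjusted p under 0.01 by limma over all 52 pools, in any of the 3 comparisons. Nor did any other pool: 0% of the 52 were called between OLs and OPCs, 0% between astrocytes and OPCs and 0% between OLs and astrocytes, with 13, 6 and 8 pools at an unadjusted p under 0.05. One of the 2 isoleucine pools was among those in each comparison, Ile-AAT against OPCs and Ile-TAT between OLs and astrocytes. The lowest adjusted p of any pool between OLs and OPCs was 0.0402 by limma. At an adjusted p of 0.01 by DESeq2, the study itself reported 3 pools between these cells, none of them isoleucine. The lack of calls here therefore does not mean that no pool differs. All fold changes are differences of log2(RPM + 1), a scale that understates the change of rare tRNAs.

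Between OLs and OPCs Ile-AAT differed by 0.38 on the log2 scale (SE 0.0779, 95% interval 0.17 to 0.59, adjusted p = 0.0609 by limma). This was the 6th highest of the 52 differences. With libraries scaled by the median of ratios instead, the Ile-AAT difference was 0.316 (limma adjusted p = 0.234). With only pools that averaged at least 1 RPM in the fit, its limma adjusted p was 0.0172, also not under 0.01. The median pool was 0.12 higher in OLs, which left Ile-AAT 0.26 above it. Ile-TAT differed by 0.09 (SE 0.07, 95% interval -0.10 to 0.28, limma adjusted p = 0.372), close to the median pool. Libraries did not overlap for 1 of the 2 isoleucine pools, Ile-AAT, beside 48.1% of all pools.

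Between astrocytes and OPCs the isoleucine pools lay on opposite sides of the median pool, whose difference was 0.00. Ile-AAT was 0.29 higher in astrocytes (SE 0.086, limma adjusted p = 0.303) and again the 6th highest of 52. Ile-TAT differed by -0.16 (SE 0.082, 95% interval -0.38 to 0.06, limma adjusted p = 0.446). Libraries did not overlap for either pool, against 32.7% of all pools.

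Between OLs and astrocytes the larger of the 2 differences was that of Ile-TAT, 0.25 higher in OLs (SE 0.0778, 95% interval 0.05 to 0.44, limma adjusted p = 0.23). Under median-of-ratios scaling the Ile-TAT difference was 0.153 (limma adjusted p = 0.713). Ile-AAT differed by 0.09 (SE 0.0805, 95% interval -0.11 to 0.29, limma adjusted p = 0.519), under the median difference of 0.11, and by -0.00377 when libraries were scaled by the median of ratios instead. Both pools had libraries that did not overlap, as did 57.7% of all pools, so this count does not set them apart. The 3 comparisons share their groups of libraries and are not independent of each other. The plot of changes over all pools places both members among the others.

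**Figure D2:**
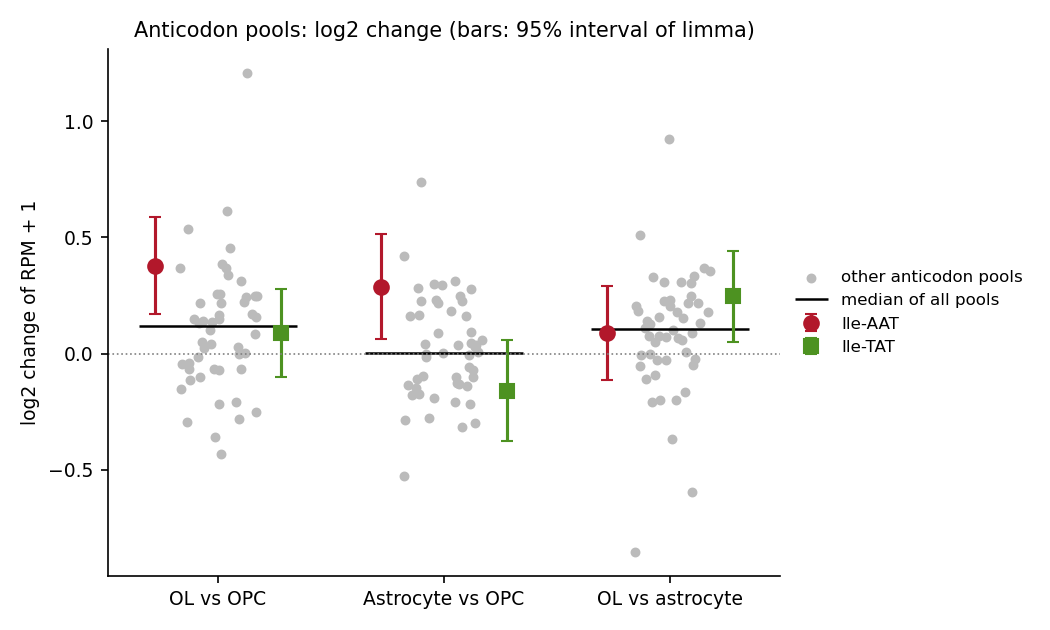
Difference in log2(RPM + 1) for each of 3 comparisons, with Ile-AAT (red circle) and Ile-TAT (green square) drawn with their 95% limma intervals beside the other anticodon pools (grey) and the median of all pools (black line). Ile-AAT lies at 0.38 and 0.29 in the comparisons with OPCs, and Ile-TAT lies below the median in astrocytes, at -0.16.

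The division of isoleucine tRNA between the 2 anticodons does not depend on how libraries are scaled to each other. Ile-TAT made up 51.3%, 55.9% and 52.7% of isoleucine tRNA in OPC replicates 1 to 3, 47.9% and 48.6% in OLs, and 45.1% and 46.0% in astrocytes. By share of reads, Ile-TAT was thus the larger pool in every OPC library and the smaller one in every OL and astrocyte library. Capture and reverse transcription can differ between tRNAs, so the larger pool by reads need not be the larger by molecules. The counting error of each percentage was small beside these differences, with a 95% Wilson interval reaching 0.381 to 0.54 percentage points to either side.

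The means were 53.3% ± 2.32 in OPCs (SD, n = 3), 48.3% ± 0.468 in OLs (SD, n = 2) and 45.6% ± 0.691 in astrocytes (SD, n = 2). As a ratio, Ile-AAT over Ile-TAT averaged 0.879 in OPCs, 1.07 in OLs and 1.2 in astrocytes. Among OPCs, replicate 2 was the farthest from equal reads, at a ratio of 0.79, and replicate 1 the nearest, at 0.948. The plot of percentages shows all 3 OPC bars past the line at 50% and the other 4 below it.

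**Figure D3:**
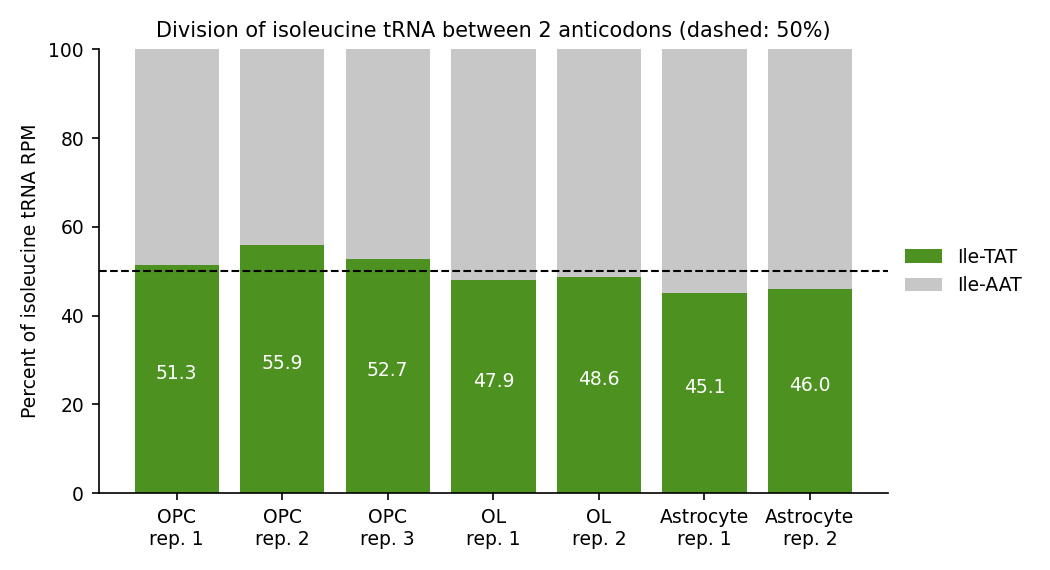
Percent of isoleucine tRNA RPM held by Ile-TAT (green, value printed) and Ile-AAT (grey) in each of the 7 libraries, with a dashed line at 50%. Ile-TAT holds 51.3% to 55.9% in OPCs, 47.9% and 48.6% in OLs and 45.1% and 46.0% in astrocytes.

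On the log2 scale the ratio of Ile-AAT to Ile-TAT was 0.29 higher in OLs than in OPCs (exact permutation test, two-sided p = 0.2, adjusted over 3 comparisons p = 0.3). It was 0.45 higher in astrocytes than in OPCs (exact permutation test, p = 0.2, adjusted p = 0.3). Between OLs and astrocytes the difference was -0.16 (exact permutation test, p = 0.333, adjusted p = 0.333). Libraries did not overlap in any of these, and each p was the smallest the group sizes allow, 0.2 for 3 against 2 and 0.333 for 2 against 2. Leaving out OPC replicate 2 gave 0.22 for OLs against OPCs and 0.37 for astrocytes against OPCs.

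The same division was compared by limma as the log2 share of each pool within its amino acid, for the 39 pools whose amino acid has more than 1. The Ile-AAT share differed by 0.15 between OLs and OPCs (SE 0.0526, adjusted p = 0.126) and by 0.22 between astrocytes and OPCs (SE 0.0555, limma adjusted p = 0.112). The Ile-TAT share mirrored it, at -0.14 (limma adjusted p = 0.126) and -0.23 (limma adjusted p = 0.106). Between OLs and astrocytes the differences were -0.07 for Ile-AAT and 0.08 for Ile-TAT, with limma adjusted p of 0.49 and 0.401.

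No isoleucine share passed the test, nor did any other, with 0% of the 39 called between OLs and OPCs, 0% between astrocytes and OPCs and 0% between OLs and astrocytes. At an unadjusted p under 0.05 limma gave 12, 6 and 6 shares, with both isoleucine shares among them in each comparison with OPCs and neither between OLs and astrocytes. When the variance was allowed to follow the mean log2 share, not the level of the pool, limma called both isoleucine shares against OPCs. Its adjusted p was 0.00297 for Ile-AAT and 0.0025 for Ile-TAT in OLs, and 6.30e-05 and 4.97e-05 in astrocytes. That setting called 9 of the 39 shares (23.1%) between OLs and OPCs and 5 of 39 (12.8%) between astrocytes and OPCs. Libraries of the isoleucine shares did not overlap in any comparison, beside 46.2% of shares between OLs and OPCs, 23.1% between astrocytes and OPCs and 53.8% between OLs and astrocytes. The 2 shares are complements and count as 1 measurement.

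Summed, the isoleucine tRNAs made up 2.64%, 2.55% and 2.30% of listed cytosolic tRNA in OPCs, 2.81% and 2.88% in OLs, and 2.60% and 2.71% in astrocytes. Both OL libraries lay above the rest, and astrocytes overlapped with OPCs. Isoleucine ranked 14th or 15th of 23 tRNA families in every library. The mean of OLs exceeded that of OPCs by 0.35 percentage points (exact permutation test, p = 0.2, adjusted over 3 comparisons p = 0.4) and that of astrocytes by 0.193 (exact permutation test, p = 0.333, adjusted p = 0.4). Astrocytes and OPCs differed by 0.157 points (exact permutation test, p = 0.4), a difference of 0.0604 points without OPC replicate 3.

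Within Ile-AAT nearly all reads belonged to 1 isodecoder. Ile-AAT-1, encoded by 8 listed genes, made up 99.5% to 99.8% of the pool in every library. It stood at 11946, 10406 and 10324 RPM in OPCs, 14093 and 14196 RPM in OLs, and 13135 and 13430 RPM in astrocytes. Its order was therefore that of the whole pool, with the 3 groups apart and OPCs lowest.

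By limma over the 192 isodecoders that averaged 1 RPM or more, Ile-AAT-1 differed by 0.38 between OLs and OPCs (SE 0.0864, adjusted p = 0.0226). It differed by 0.29 between astrocytes and OPCs (SE 0.11, limma adjusted p = 0.176) and by 0.09 between OLs and astrocytes (SE 0.105, limma adjusted p = 0.624). Under median-of-ratios scaling the first difference was 0.318 (limma adjusted p = 0.0868). With the replicate number as a block, the first difference was 0.34 (limma adjusted p = 0.00124) and passed the threshold, beside 45 of all 192 isodecoders (23.4%) in that fit. Whether the numbers match OLs to the OPCs they came from is not stated in the sources used here.

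The other Ile-AAT isodecoders have 1 listed gene each and were rare. Ile-AAT-2 measured 30.6, 48.4 and 25.9 RPM in OPCs, 23.9 and 23.1 RPM in OLs, and 26.9 and 32.7 RPM in astrocytes, from 37 to 86 reads a library. Both OL libraries were below all others, while the wide OPC spread rested on replicate 2. Its difference was -0.51 between OLs and OPCs (limma adjusted p = 0.298), -0.18 between astrocytes and OPCs (adjusted p = 0.714) and -0.33 between OLs and astrocytes (adjusted p = 0.587), and without OPC replicate 2 the first was -0.25 and the second 0.07. Leaving out astrocyte replicate 1 made the second -0.04, and leaving out astrocyte replicate 2 made the third -0.19.

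Ile-AAT-3 measured 4.48, 5.96 and 7.81 RPM in OPCs, 9.43 and 14.95 RPM in OLs, and 8.10 and 9.13 RPM in astrocytes. These values rest on only 6 to 24 reads a library, and OPCs were lowest with no overlap. Its difference between OLs and OPCs was 0.89 (limma adjusted p = 0.129), and it was 0.47 between astrocytes and OPCs (limma adjusted p = 0.416). The first was 0.59 without OL replicate 2, and the second 0.29 without OPC replicate 1. Ile-AAT-4 was listed at 0 in all 7 libraries, 1 of 3 isodecoders in the whole table with no read, which allows up to 1.14 to 2.24 RPM by library.

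The reads of the Ile-TAT pool were divided almost evenly between 2 isodecoders with different orders across the cell types. Ile-TAT-1, which has 1 listed gene, stood at 6503, 7095 and 6151 RPM in OPCs, 6165 and 6045 RPM in OLs, and 5580 and 5687 RPM in astrocytes. Astrocytes were lowest, and OL values lay at the lower edge of the OPC range. Its means were 6583 ± 477 RPM in OPCs (SD, n = 3), 6105 ± 85.3 in OLs (SD, n = 2) and 5633 ± 75.9 in astrocytes (SD, n = 2).

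Ile-TAT-2, with 3 listed genes, measured 6131, 6138 and 5376 RPM in OPCs, 6840 and 7411 RPM in OLs, and 5224 and 5808 RPM in astrocytes. It was highest in OLs, apart from both other groups, and overlapped between OPCs and astrocytes. Its means were 5882 ± 438 RPM in OPCs (SD, n = 3), 7125 ± 404 in OLs (SD, n = 2) and 5516 ± 413 in astrocytes (SD, n = 2).

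Between OLs and OPCs Ile-TAT-2 differed by 0.28 (SE 0.095, limma adjusted p = 0.0822) and Ile-TAT-1 by -0.11 (SE 0.0895, limma adjusted p = 0.426). Between OLs and astrocytes Ile-TAT-2 differed by 0.37 (SE 0.118, 95% interval 0.11 to 0.63, limma adjusted p = 0.074) and Ile-TAT-1 by 0.12 (limma adjusted p = 0.574). Under median-of-ratios scaling Ile-TAT-2 differed by 0.216 between OLs and OPCs (limma adjusted p = 0.236) and by 0.276 between OLs and astrocytes (limma adjusted p = 0.24). Between astrocytes and OPCs the differences were -0.09 for Ile-TAT-2 and -0.22 for Ile-TAT-1, with limma adjusted p of 0.65 and 0.301. The near equality of the 2 isodecoders comes with unequal gene numbers, and since a read stands for a ligated tRNA, levels were not divided by length. Per listed gene, Ile-TAT-1 stood at 5580 to 7095 RPM, Ile-TAT-2 at 1741 to 2470 RPM and Ile-AAT-1 at 1291 to 1774 RPM.

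Ile-TAT-3, also of 1 listed gene, had 1, 1 and 2 reads in OPC replicates 1 to 3, none in OLs, and none and 1 in astrocytes. All of these lie under the limit of 3 reads, and no difference was detectable at this depth. The plot of the 5 isodecoders above 1 RPM sets the abundant members beside the rare ones.

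**Figure D4:**
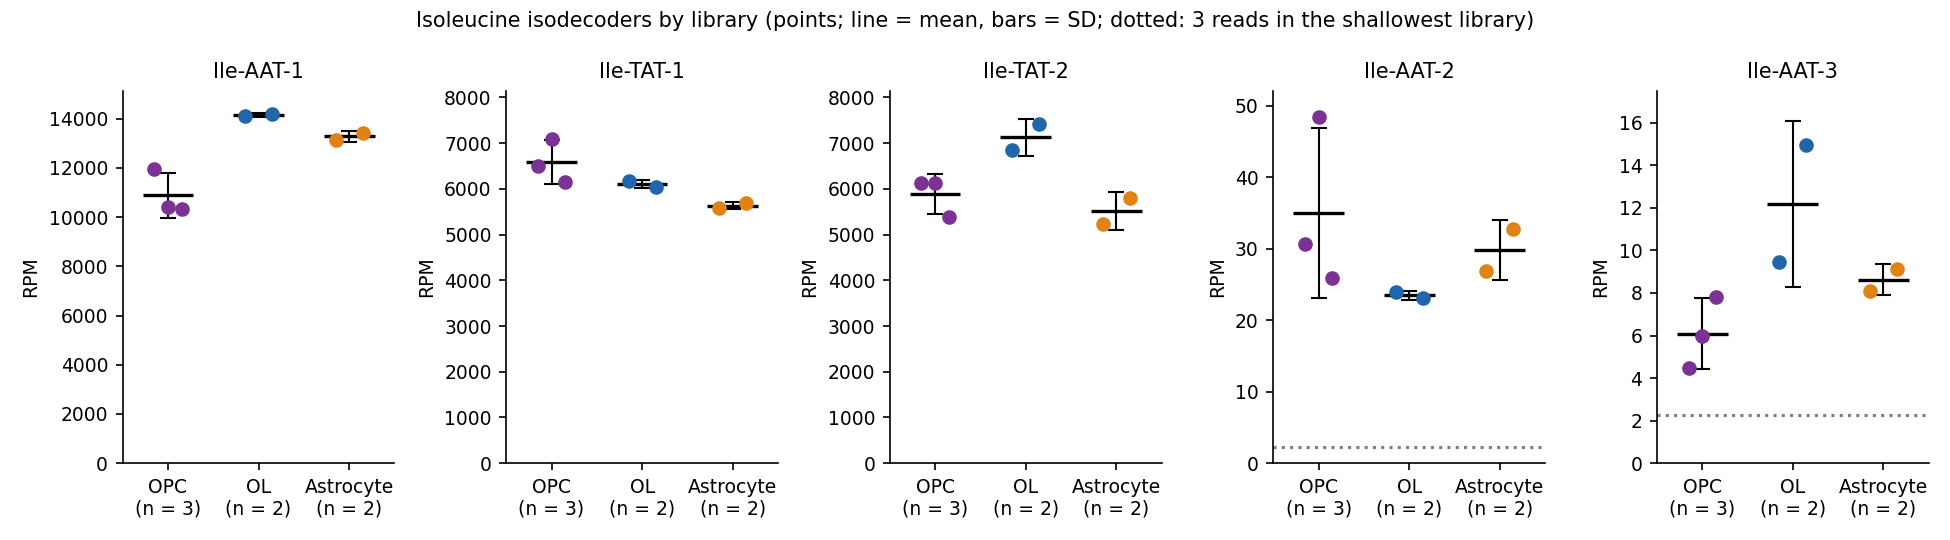
RPM in each library (points) of the 5 isoleucine isodecoders that averaged 1 RPM or more, with group means (lines) and SD (bars) on separate axes that start at 0, and a dotted line at 3 reads in the shallowest library (2.24 RPM). Ile-TAT-2 is highest in OLs, at 6840 and 7411 RPM, whereas Ile-TAT-1 is not, at 6165 and 6045 RPM.

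Of the 5 tested isoleucine isodecoders, limma called 0 in each comparison, beside 5.73% of 192 isodecoders between OLs and OPCs, 0% between astrocytes and OPCs and 6.25% between OLs and astrocytes. At an unadjusted p under 0.05 these were 3, 1 and 1 isoleucine isodecoders, among 63, 40 and 52 in all. Libraries did not overlap for 4 of 5 between OLs and OPCs, where 53.1% of all isodecoders did not overlap. The counts were 3 of 5 between astrocytes and OPCs, beside 39.6%, and 5 of 5 between OLs and astrocytes, beside 60.4%. With 5 members these counts do not set isoleucine apart from the rest. The 5 passed a filter on their mean level, whereas Ile-AAT-4 and Ile-TAT-3 did not.

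Ile-TAT-2 made up 48.5%, 46.4% and 46.6% of its pool in OPCs, 52.6% and 55.1% in OLs, and 48.4% and 50.5% in astrocytes. It was the major Ile-TAT isodecoder in both OL libraries and in astrocyte replicate 2, and Ile-TAT-1 was the major one elsewhere. The Wilson interval of each percentage reached 0.564 to 0.753 points to either side. The means were 47.2% ± 1.17 in OPCs (SD, n = 3), 53.8% ± 1.76 in OLs (SD, n = 2) and 49.4% ± 1.53 in astrocytes (SD, n = 2).

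As a log2 share of the pool, Ile-TAT-2 differed by 0.19 between OLs and OPCs (SE 0.0409, limma adjusted p = 0.0567) and Ile-TAT-1 by -0.19 (SE 0.0418, limma adjusted p = 0.0567). Against astrocytes the shares in OLs differed by 0.12 for Ile-TAT-2 (limma adjusted p = 0.16) and by -0.13 for Ile-TAT-1 (limma adjusted p = 0.144). Between astrocytes and OPCs they differed by 0.07 and -0.06, with limma adjusted p of 0.431 and 0.441. The Ile-AAT-2 share differed by -0.88 between OLs and OPCs (limma adjusted p = 0.172), and that of Ile-AAT-3 by 0.51 (limma adjusted p = 0.426). The Ile-AAT-3 value was 0.21 without OL replicate 2, 0.27 without OPC replicate 1 and 0.81 without OL replicate 1.

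None of the isoleucine isodecoder shares was called by limma, beside 2.17% of 184 shares between OLs and OPCs, 0% between astrocytes and OPCs and 3.8% between OLs and astrocytes. At an unadjusted p under 0.05 there were 2, 0 and 2, in both cases those of Ile-TAT-1 and Ile-TAT-2, among 57, 43 and 50 in all.

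The pools with a pattern most like each isoleucine pool were found by the root mean square difference of centred log2(RPM + 1) over the 7 libraries, among the 46 other pools with at least 100 RPM. For Ile-AAT these were Asp-GTC, which carries aspartate (0.103), Leu-CAG, which carries leucine (0.107), and SeC-TCA, the selenocysteine tRNA that reads UGA (0.119). The median pool lay at a difference of 0.205. For Ile-TAT the nearest were Ala-CGC (0.0624), Gly-CCC (0.0678) and Ala-TGC (0.0729), with a median of 0.173. Ile-TAT was the 24th nearest to Ile-AAT and Ile-AAT the 32nd nearest to Ile-TAT, at 0.206, so neither isoleucine pool was close to the other.

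The 3 pools most like Ile-AAT also had OPCs lowest. SeC-TCA stood at 2279, 2207 and 2098 RPM in OPCs, 3287 and 3426 RPM in OLs, and 2546 and 2777 RPM in astrocytes, with no overlap. Asp-GTC ran from 42161 to 47388 RPM in OPCs and from 49417 to 62323 RPM in the other cells. The 3 most like Ile-TAT had their lowest library in astrocytes, for example Gly-CCC at 10641 and 12025 RPM beside 12558 to 14458 RPM elsewhere. These values describe how the pools were chosen and were not tested.

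Other tRNAs of each kind were set beside the isoleucine pools. The other 7 pools with adenosine at the first anticodon position, all read as inosine, are Ala-AGC, Arg-ACG, Leu-AAG, Pro-AGG, Ser-AGA, Thr-AGT and Val-AAC. None passed the limma test in any comparison. Between OLs and OPCs 4 had a higher and 3 a lower level, from -0.29 for Pro-AGG to 0.37 for Thr-AGT, with a median of 0.17 beside 0.12 for all pools. Between astrocytes and OPCs 3 were higher and 4 lower, from -0.13 for Ser-AGA to 0.31 for Val-AAC, with a median of -0.06 beside 0.00.

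As shares of their amino acid, the other 7 had a median difference of 0.13 between OLs and OPCs, from -0.60 for Pro-AGG to 0.24 for Leu-AAG, and of 0.05 between astrocytes and OPCs, from -0.29 for Pro-AGG to 0.23 for Thr-AGT. Thr-AGT, which carries threonine, was close to Ile-AAT in both comparisons. It made up 49.6% ± 2.63 of threonine tRNA in OPCs (SD, n = 3), 54.3% ± 1.88 in OLs (SD, n = 2) and 58.0% ± 1.79 in astrocytes (SD, n = 2). The pools of this kind did not share 1 direction, as the plot of their shares shows.

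**Figure D5:**
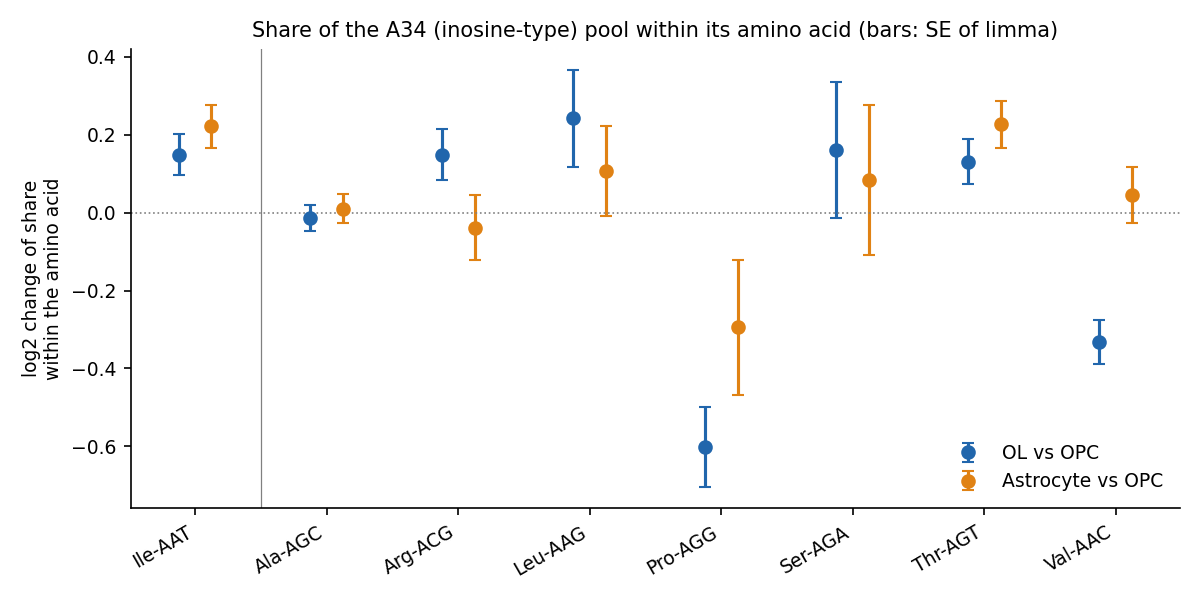
Difference in the log2 share of an amino acid's tRNA held by each pool with adenosine at the first anticodon position, for OLs against OPCs (blue) and astrocytes against OPCs (orange), with limma standard errors as bars. Ile-AAT lies at 0.15 and 0.22, near Thr-AGT at 0.13 and 0.23, whereas Pro-AGG lies at -0.60 and -0.29.

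The other 3 pools with intron-bearing genes are Arg-TCT, Leu-CAA and Tyr-GTA, and none passed the limma test. Between OLs and OPCs all 3 were higher, from 0.04 for Arg-TCT to 0.25 for Leu-CAA, with Ile-TAT at 0.09 inside that range. Between astrocytes and OPCs they ran from -0.18 for Tyr-GTA to 0.09 for Leu-CAA, with Ile-TAT at -0.16. Between OLs and astrocytes they ran from 0.11 for Arg-TCT to 0.33 for Tyr-GTA, with Ile-TAT at 0.25. By level Ile-TAT therefore lay within the range of the other intron-bearing pools in all 3 comparisons. By share of its amino acid it lay outside that of the 2 others that have a share, Arg-TCT and Leu-CAA, since Tyr-GTA is the only tyrosine pool. The Ile-TAT share was at -0.14 between OLs and OPCs, beside -0.06 for Arg-TCT and 0.24 for Leu-CAA, and at -0.23 between astrocytes and OPCs, beside -0.05 and 0.16. Between OLs and astrocytes it was at 0.0834, just above Leu-CAA at 0.078, with Arg-TCT at -0.01. These are descriptions, and no difference between the pools was tested.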

How the data were processed

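QuantM-seq libraries of 3 OPC, 2 OL and 2 astrocyte cultures were grouped by their deposited labels. According to the methods, the authors trimmed reads with cutadapt, mapped them with bowtie2 to mature mm10 tRNAs from GtRNAdb with identical genes collapsed, and counted them per isodecoder with featureCounts at a minimum mapping quality of 10. Reads of closely similar isodecoders can be exchanged or lost at that step. The authors deposited RPM per isodecoder and per anticodon, scaled to all tRNA reads, with replicates kept separate. The isodecoders of each anticodon added up to its deposited value. The authors' DESeq2 tables hold their own comparison of OPCs with OLs and were not used. Reads per library were reconstructed from the smallest step between RPM values. Only 70 to 76 low values per library carry that step, too few to accept the reads for a count test, and none was run. All read counts, limits, counting intervals and chi-square values rest on these reconstructed reads.

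Each RPM table was fitted whole, on the scale log2(RPM + 1), by limma 3.58.1 (lmFit and eBayes, R 4.3.3), two-sided, with a variance trend for levels and without one for shares. Calls needed a Benjamini-Hochberg adjusted p under 0.01, the adjustment covering the whole table. Comparisons with OPCs used only the libraries compared, and that of OLs with astrocytes used all 7. Single values were compared by exact permutation tests in scipy 1.17.1. Isodecoders needed a mean of at least 1 RPM over the 7 libraries to be tested, and shares needed the same mean and a second such tRNA in their amino acid or pool. Levels of anticodon pools were tested without that filter. The fit of levels between OLs and OPCs was tested on simulated data, and the fits of shares and of the other comparisons were not. All isoleucine tRNAs were named, and other pools by list or by likeness. The members, lists and tests were chosen with earlier results of these data known. Alternatives covered pseudocounts of 0.1 and 10, filters, the scaling, a threshold of 0.05, the variance trend, which libraries entered, the replicate number as a block and each library left out. Gene positions came from RefSeq on GRCm38.p6 with GENCODE M21, and the sequence from the RefSeq hairpin of Mir1983.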

Additional observations from a re-analysis of the deposited data

How the results depend on the processing

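No alternative turned the direction of the isoleucine balance or of the isoleucine share of cytosolic tRNA. Leaving out 1 library could not turn a difference between groups whose libraries did not overlap. That held for the balance in every comparison, and for the isoleucine share in all but astrocytes against OPCs. Pseudocounts of this size were also too small to matter for pools this abundant. With each library left out in turn, the log2 ratio of Ile-AAT to Ile-TAT differed by 0.22 to 0.35 between OLs and OPCs, by 0.37 to 0.50 between astrocytes and OPCs and by -0.19 to -0.13 between OLs and astrocytes. The isoleucine share, taken of all tRNA reads, was 0.294 points higher in OLs than in astrocytes. At a threshold of 0.05, 1 of 5 isoleucine isodecoders was called between OLs and OPCs, Ile-AAT-1, beside 35 of all 192 (18.2%). With a variance trend, 2 isoleucine anticodon shares were called between OLs and OPCs and 2 between astrocytes and OPCs, beside 9 and 5 of all 39. Signs turned for Ile-AAT and Ile-AAT-1 between OLs and astrocytes under median-of-ratios scaling (-0.00377 and -0.00324). Between astrocytes and OPCs they turned for Ile-AAT-2 without OPC replicate 2 (range with 1 library left out -0.37 to 0.0722) and for the Ile-AAT-3 share with a pseudocount of 10 (-0.0722) or without OPC replicate 1 (range with 1 library left out -0.0612 to 0.39). The cause was not tested. None of these was called.

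The OLs were made from 2 of the OPC replicates, and which ones is not given in the sources used here. Same-numbered libraries gave correlations of their deviations over 192 isodecoders of 0.118 and -0.111 between OPCs and OLs, -0.0746 and 0.343 between OPCs and astrocytes, and -0.294 between OLs and astrocytes. In a group of 2 the deviations are mirror images, so these values do not settle the pairing. With the replicate block 1 isoleucine isodecoder was called between OLs and OPCs, again Ile-AAT-1, beside 45 of all 192 (23.4%), and none elsewhere. A crossed pairing of OLs with astrocytes, added after the data were seen, called 0 isoleucine pools, isodecoders and shares.

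Over the alternatives, called isodecoders ranged from 0 to 45 between OLs and OPCs (11 as reported, 29 without OPC replicate 3, 4 without OPC replicate 1, 0 without either OL library, 45 with the block). They ranged from 0 to 24 between astrocytes and OPCs (0 as reported, 17 without OPC replicate 3) and from 0 to 20 between OLs and astrocytes (12 as reported, 20 without OPC replicate 3). Called isodecoder shares ranged from 0 to 26 between OLs and OPCs and between OLs and astrocytes, and called anticodon shares reached 9 with a variance trend. Groups of 2 and 3 libraries and, for Ile-AAT-2, Ile-AAT-3 and Ile-TAT-3, few reads limit what could be detected.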
